A study of Mus musculus with 12 samples.

Results

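The genes described here encode the proteoglycans and glycoproteins of the extracellular matrix, the protein and sugar mesh outside cells, as they were transcribed in mouse dermal papilla cells, the mesenchyme that sits in the hair bulb and directs hair growth. They are 37 named genes out of 25887 in the deposited tables, chosen by name, with collagens, laminins and glypicans left out. All 37 were found and had reads in every library. RNA was sequenced from dermal papilla cells sorted by FACS in 4 groups of 3 libraries. The P20 groups, which are female samples of postnatal day 20 in telogen (the hair follicle at rest), were wild type (WT) and Smo*, a gain-of-function mutant of the Hedgehog signal transducer Smo that the series describes as specific to the dermal papilla. The P28 groups (postnatal day 28) were labelled male, with WT in anagen VI, late in the growth stage, and Smo* in anagen I-III, its start. Genotype and growth stage therefore differ together at P28, and age, stage and sex differ together between P20 and P28. The Smo allele and what drives its expression are not named in the sources used here. The labels do not say whether each library is a separate animal. The p-values therefore refer to the spread of these samples, part of which may be technical. Bulk RNA cannot tell fewer cells of a type from less RNA per cell.

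Proteoglycans carry long sulphated sugar chains on a core protein. Small leucine-rich proteoglycans coat collagen fibrils, syndecans sit in the cell membrane and present growth factors, and perlecan builds basement membranes. Among the glycoproteins, fibronectin links cells to the matrix, elastin and fibrillins form elastic fibres, and the matricellular proteins (tenascins, thrombospondins, periostin and the SPARC family) adjust how cells adhere and respond to signals. The dermal papilla is surrounded by such a matrix, which enlarges while the follicle grows and shrinks when it rests.

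Each library held 36323058 to 48926831 reads on genes. P28 Smo* replicate 3 detected 15453 genes, and the other 11 libraries 17337 to 17926. Gli1, a Hedgehog target that checks the genotype labels, lay at 1022 to 2245 normalized counts (reads divided by a size factor of the library) in P20 WT and 3665 to 5323 in P20 Smo*, and at 1396 to 1581 in P28 WT and 4071 to 4435 in P28 Smo*. Dermal papilla markers (19 genes, among them Corin, Rspo4 and Alpl) were all detected. Their summed normalized count was 66055 to 87519 in P20 WT, 80002 to 117742 in P20 Smo*, 359938 to 432690 in P28 WT, and 147815, 227817 and 44518 in P28 Smo* replicates 1 to 3. That sum moved with genotype at P28. In P28 Smo* replicate 3 it was the lowest of the 12 libraries, below every telogen library. The part of this sum in the differences below was not tested.

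The 37 genes took 4.62% ± 0.281 of all normalized counts in P20 WT, 4.21% ± 0.232 in P20 Smo*, 4.53% ± 0.447 in P28 WT and 4.91% ± 0.453 in P28 Smo* (SD, n = 3). Sparc, a collagen-binding protein that helps fibrils form, made up 41.1% of the counts of the set and 1.89% of those of all genes. Levels of different genes were compared as normalized counts per kb of exon, averaged over the 12 libraries. Sparc stood at 212776 per kb, followed by the collagen-coating proteoglycans Dcn at 26329 and Lum at 22153, then Fn1 (fibronectin) at 13521, Bgn at 13202, Fbn1 (fibrillin 1) at 13201 and Eln (elastin) at 11065. Fn1, Bgn and Fbn1 did not differ beyond the spread of their libraries. The lowest were Tnn at 431.5, Tnc at 227.3, Acan at 101.6 and Spock3 at 87.15 per kb. Groups differed within these means: Tnn stood at 1023 per kb in P20 WT, above Fbn2 at 433.7 and Sdc3 at 295.3, and at 55.93 in P28 WT. The lowest of the 37 still lay at the 43.6th percentile of genes with a mean of at least 10.

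**Figure D1:**
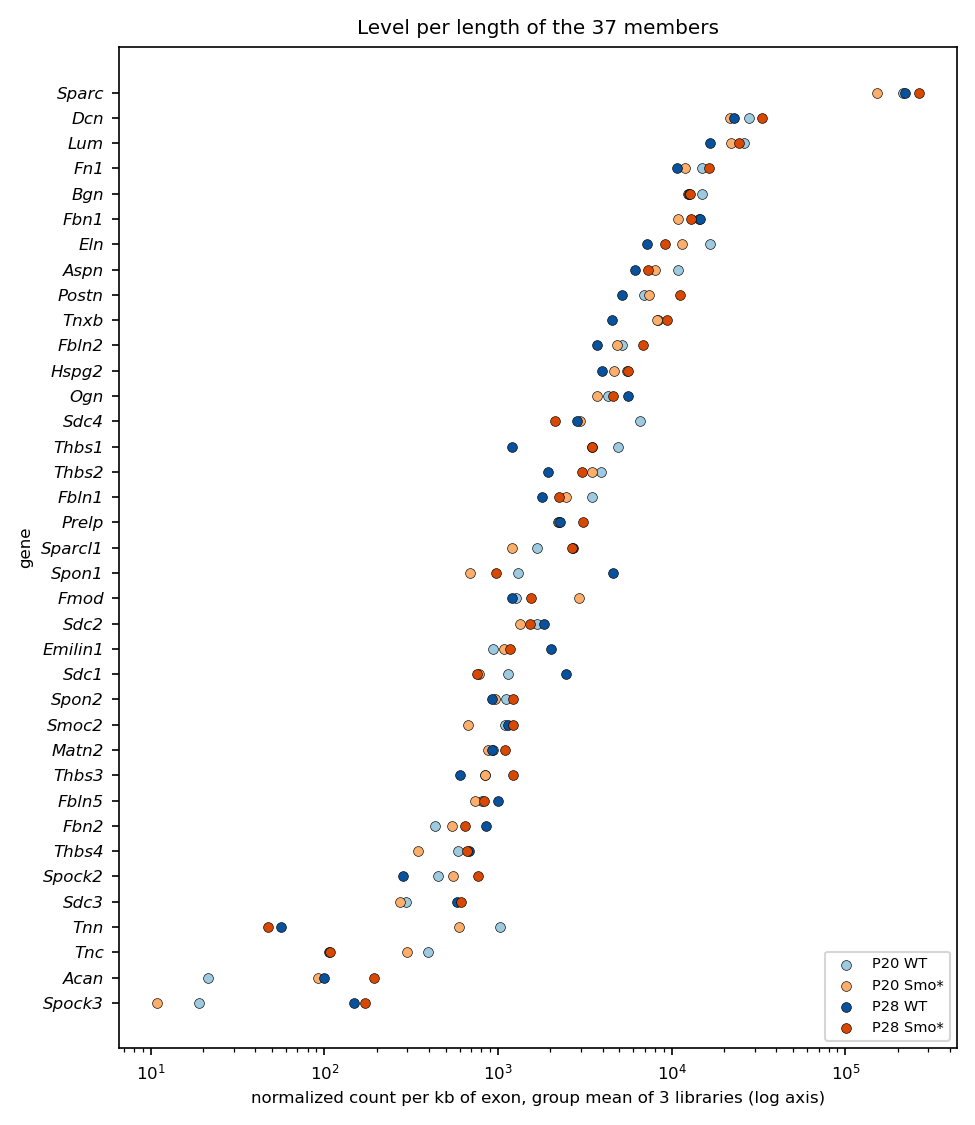
Normalized count per kb of exon (log axis) for each of the 37 genes, as the mean of the 3 libraries of each group, ordered by the mean over all 12 libraries. Sparc stands apart at the top, at 212776 per kb over all libraries, and Tnn, Acan and Spock3 near the bottom spread most between groups.

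Replicates of these genes varied somewhat more than those of other genes. The median coefficient of variation over the 37 was 16% in P20 WT, 16.8% in P20 Smo*, 20.4% in P28 WT and 20.4% in P28 Smo*, against 13.7%, 15.1%, 13.5% and 18.4% over all genes with a mean of at least 10. Postn was the steadiest in P20 WT (4.12%) and in P28 Smo* (6.97%). Fmod, which spaces collagen fibrils, was the least steady in P20 Smo* (129%), with 1 of its 3 libraries at 23993 normalized counts and the others at 2399 and 2572. Tnc was the least steady in P20 WT (93.1%), with 6384, 1149 and 1719.

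**Figure D2:**
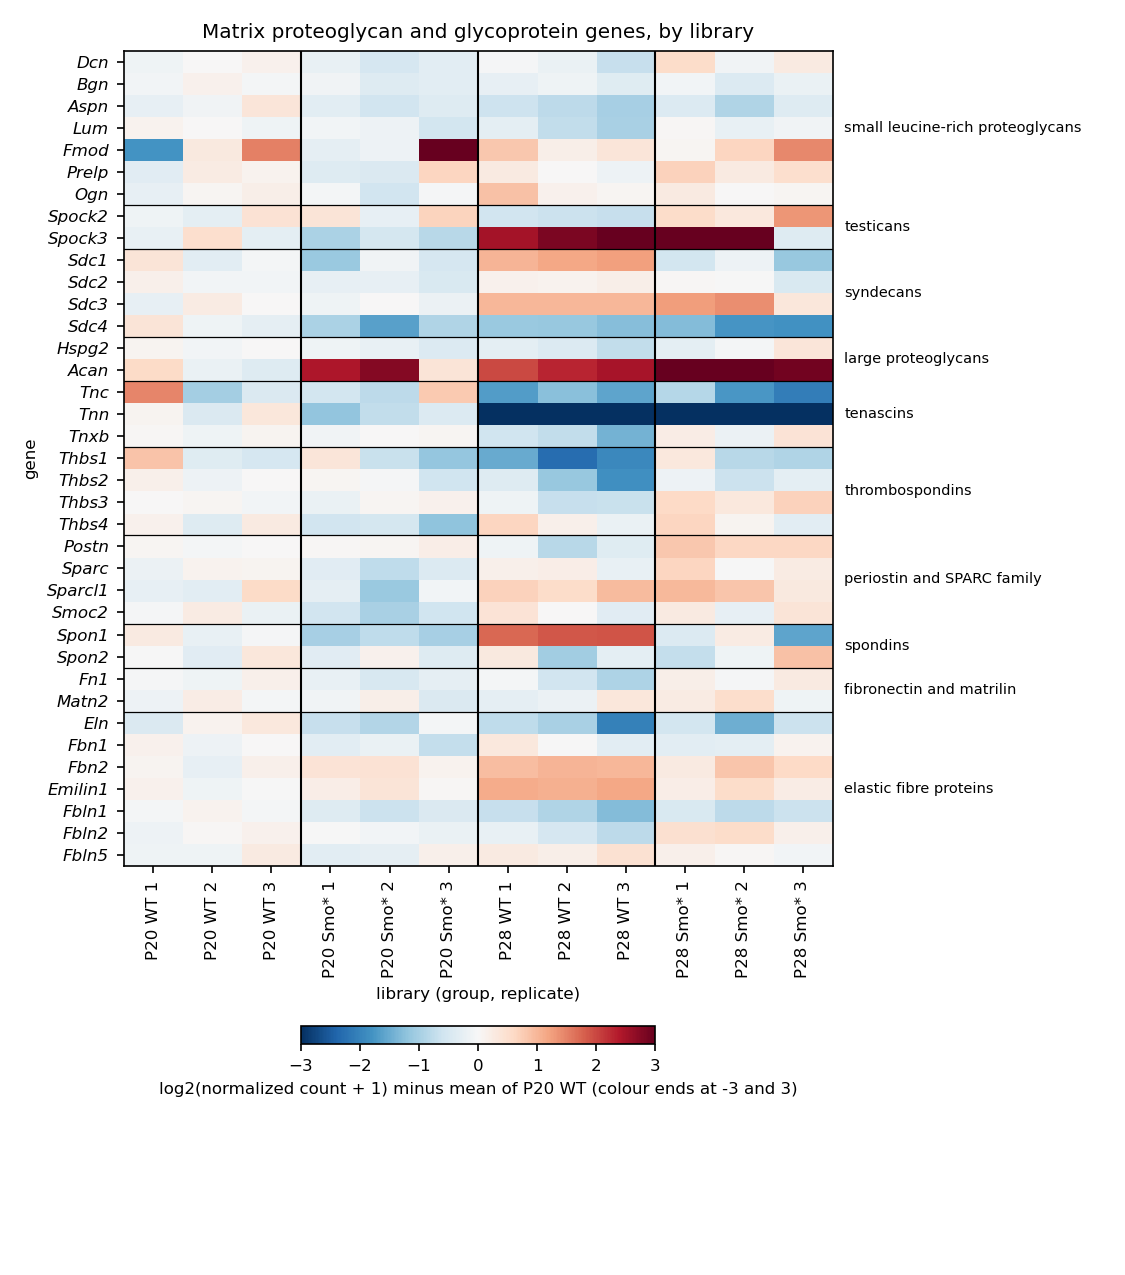
Difference of log2(normalized count + 1) from the P20 WT mean for each gene (rows, by class) in each of the 12 libraries (columns), with colour ends at -3 and 3. Tnn is low in all 6 P28 libraries, Spock3 is high in 5 of them and not in P28 Smo* replicate 3, and Spon1 and Sdc1 are high in the 3 P28 WT libraries.

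RefSeq promoter windows (build GRCm38.p6) were found for 25 of the 37 genes. The bases upstream of the start are shown for 4 genes that carry the comparisons below: Postn and Thbs3, which were higher in Smo* at P28, Sdc1, which was lower, and Tnn, which fell most between ages. Each is given 5′ to 3′ on the strand of the gene, ending before the first exonic base, for Postn at chr3:54360857-54361106 (plus strand), Thbs3 at chr3:89214930-89215179 (plus strand), Sdc1 at chr12:8771146-8771322 (plus strand) and Tnn at chr1:160153581-160153825 (minus strand). Capitals mark a TATAAA match, the core of a TATA box.
Postn: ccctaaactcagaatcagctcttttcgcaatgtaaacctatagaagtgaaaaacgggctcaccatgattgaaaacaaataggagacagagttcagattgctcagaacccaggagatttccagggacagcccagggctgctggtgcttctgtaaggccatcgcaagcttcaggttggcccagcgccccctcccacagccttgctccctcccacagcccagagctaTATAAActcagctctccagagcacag
Thbs3: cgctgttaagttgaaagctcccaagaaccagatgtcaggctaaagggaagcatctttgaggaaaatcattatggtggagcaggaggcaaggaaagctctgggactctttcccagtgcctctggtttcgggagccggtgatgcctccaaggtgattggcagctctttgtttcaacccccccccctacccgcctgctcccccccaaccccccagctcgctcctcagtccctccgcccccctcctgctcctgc
Sdc1: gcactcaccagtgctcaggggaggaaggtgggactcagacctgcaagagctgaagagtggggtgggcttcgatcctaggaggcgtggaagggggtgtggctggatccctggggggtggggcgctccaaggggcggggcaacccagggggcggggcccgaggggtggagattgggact
Tnn: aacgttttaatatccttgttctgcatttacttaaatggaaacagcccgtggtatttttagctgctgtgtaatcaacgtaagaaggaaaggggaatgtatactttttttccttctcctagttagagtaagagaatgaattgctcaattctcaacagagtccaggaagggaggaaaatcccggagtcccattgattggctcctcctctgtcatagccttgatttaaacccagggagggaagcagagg
The Postn match lies 26 bases before the start of the RefSeq transcript, and the other 3 stretches hold none. TATAAA, searched on both strands, occurred in windows of 5 of the 25 genes (Aspn, Ogn, Postn, Thbs2 and Tnc) and in 12.4% of all 32851 windows. The letters CTTTGAA, a TCF/LEF motif, occurred in those of Bgn and Spock2, and in 4.46% of all windows. The Gli motif core GACCACCCA occurred in 0 of the 25, and in 0.225% of all windows. Sdc1 had the highest GC content of the 4 stretches at 68.4%, and Tnn the lowest at 42%. These matches describe letters in a window and nothing more. The gene bodies (GENCODE, GRCm38) were at chromosome 3, 54361109 to 54391037 for Postn (ENSMUSG00000027750), chromosome 3, 89215180 to 89226837 for Thbs3 (ENSMUSG00000028047), chromosome 12, 8771323 to 8793715 for Sdc1 (ENSMUSG00000020592), and chromosome 1, 160085029 to 160153580 for Tnn (ENSMUSG00000026725). Spon1 (ENSMUSG00000038156) lies at chromosome 7, 113765998 to 114043370, and Emilin1 (ENSMUSG00000029163) at chromosome 5, 30913402 to 30921277.

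At P20, in telogen, 1 of the 37 genes passed the test between Smo* and WT: Spon1 fell (limma on log2 of the normalized count + 1, Benjamini-Hochberg adjustment over all genes, adjusted p under 0.05). Across all 14645 genes tested 0.696% passed. The fold changes leaned to lower values in Smo*, with 31 of 37 below 0 and a median of -0.26 on the log2 scale, against 0.0025 over all genes. The lean depended on the scaling: with quantile normalization the median was -0.07, with 12 of the 37 above 0. At an unadjusted p under 0.05 there were 10 genes of the 37, against 11.4% of all genes. The 3 Smo* values all lay below the 3 WT values in 14 genes and all above in 0, where 16.4% of all genes did not overlap in either direction.

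At P28, 6 of the 37 genes rose in Smo* and 3 fell. Spock2, Acan, Thbs1, Thbs3, Postn and Fbln2 rose, and Sdc1, Spon1 and Emilin1 fell. Of all 14757 genes tested 8.9% passed, 4.05% higher and 4.85% lower. The 37 genes were chosen with earlier results of these data known, so 9 of 37 against that share is not a test. The median fold change was 0.24 on the log2 scale, against -0.0098 over all genes, with 23 above 0 and 14 below. Leaving out WT replicate 3 gave 0.11, WT replicate 2 gave 0.13 and Smo* replicate 1 gave 0.16. In 10 genes all Smo* values lay above all WT values and in 7 all lay below, where 33.4% of all genes did not overlap. Against 9 calls with all libraries, 2 genes passed without WT replicate 2 and 2 without WT replicate 3. The fold changes of the 9 genes that passed had the same direction in every alternative run.

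**Figure D3:**
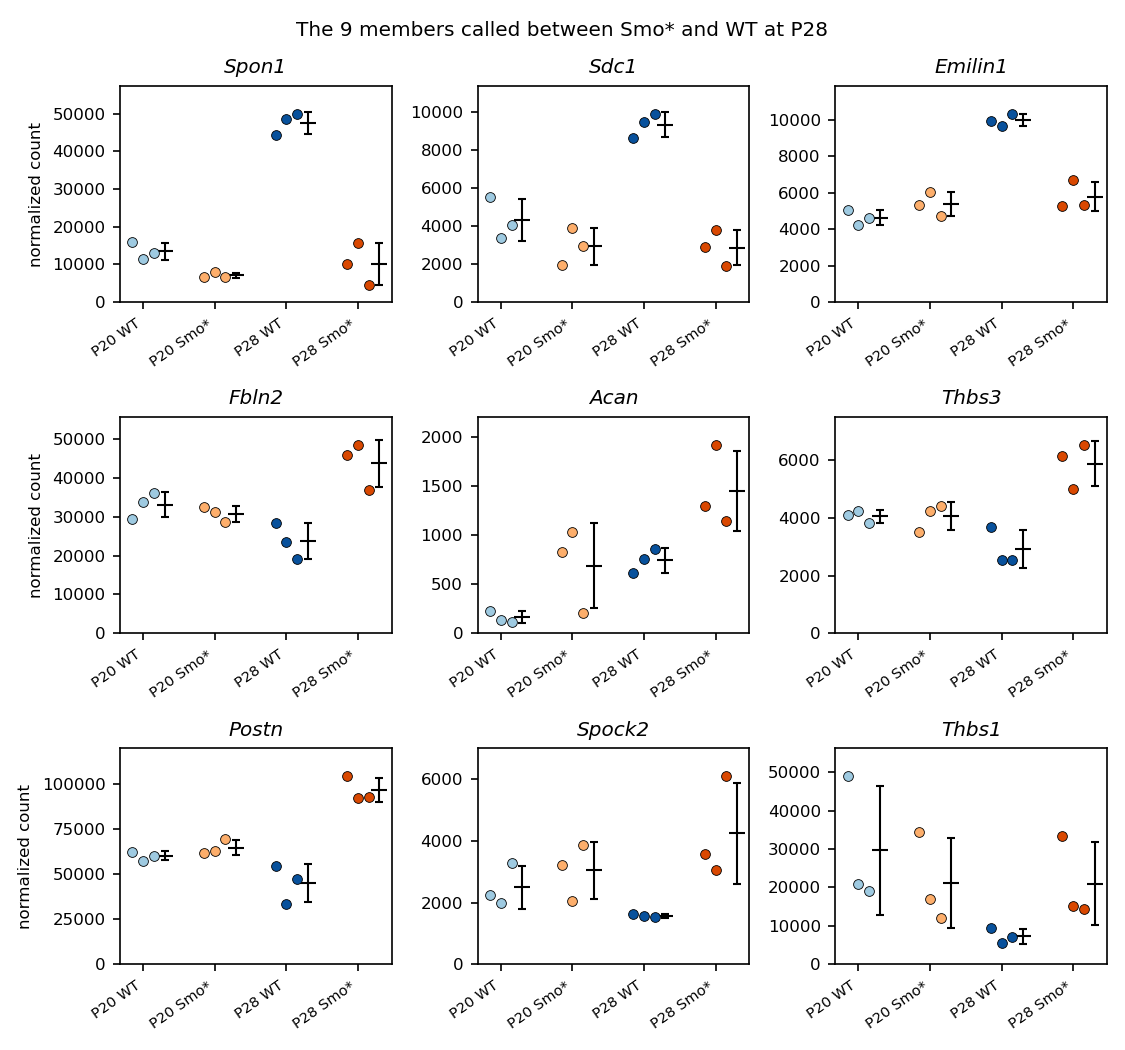
Normalized count (y axis, from 0) in each library of the 4 groups for the 9 genes that passed the test between Smo* and WT at P28, with bars for the mean and SD of 3 libraries. Spon1, Sdc1 and Emilin1 are high in P28 WT alone of the 4 groups, whereas Postn, Thbs3 and Fbln2 are highest in P28 Smo*.

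Small leucine-rich proteoglycans (7 genes) sit on collagen fibrils and bind growth factors of the TGF-beta family. None of the 7 passed the limma test between genotypes at either age. At an unadjusted p under 0.05 there was 1 gene (Aspn) at P20 and 2 (Lum and Prelp) at P28, where 11.4% and 26.4% of all genes had one, and in DESeq2 Lum passed at P28 (adjusted p = 0.0454). Dcn (decorin), the most abundant, lay at 147683, 161885 and 175415 normalized counts in P20 WT and at 137879, 113206 and 129090 in P20 Smo*. At P28 it lay at 158402, 139531 and 99315 in WT and at 237825, 149012 and 195244 in Smo*. Its Smo* values were thus all lower at P20 and overlapped with WT at P28 (log2 fold change -0.35 with SE 0.17, limma adjusted p = 0.485, and 0.55, SE 0.31, adjusted p = 0.3). Lum (lumican), which sets fibril spacing, lay at 51771, 38033 and 32247 in P28 WT and at 65053, 54062 and 58836 in P28 Smo*. The Lum groups did not overlap, yet the difference of 0.57 (SE 0.22) had a limma adjusted p of 0.143. In the authors' deposited table Dcn (adjusted p = 0.043) and Lum (adjusted p = 0.0301) passed at P28.

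Between P20 and P28 in WT, Aspn (asporin, a decorin relative that binds TGF-beta) fell from 21014, 23288 and 32250 to 16230, 14662 and 12542 normalized counts. The log2 fold change was -0.80 (SE 0.18, limma adjusted p = 0.00759) and the groups did not overlap. Lum fell too, from 68405, 63881 and 58295 to the P28 values above, by 0.67 on the log2 scale (SE 0.19, limma adjusted p = 0.0232). The Lum call ended without P20 WT replicate 1 (adjusted p = 0.0736) or 2 (0.064), without P28 WT replicate 2 (0.0699) or 3 (0.1), and with no filter on low values (0.0522). In Smo* neither passed, with -0.14 for Aspn and 0.16 for Lum. Bgn (biglycan), Prelp, Ogn and Fmod passed no test. Bgn was the steadiest of the class across groups, at 91310 ± 6883 and 75924 ± 7279 in P20 WT and Smo*, and 76981 ± 6635 and 77869 ± 9146 at P28 (SD, n = 3). Genes of this class lie close together: Dcn and Lum are 47 kb apart on chromosome 10, Prelp and Fmod 116 kb apart on chromosome 1, and Aspn and Ogn 40.5 kb apart on chromosome 13, with Omd between them.

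Testicans are calcium-binding proteoglycans with a SPARC-like domain. Spock2 (testican 2) lay at 1625, 1551 and 1516 normalized counts in P28 WT and at 3569, 3061 and 6099 in P28 Smo*. Every Smo* value was above every WT value, and Spock2 rose 2.59-fold (log2 fold change 1.37 with SE 0.23, limma adjusted p = 0.0117). The call ended without WT replicate 2 (adjusted p = 0.0573) or 3 (0.0534) and with no variance trend (0.0538). At P20 its groups overlapped, at 2233, 1978 and 3286 in WT and 3207, 2042 and 3870 in Smo*.

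Spock3 (testican 3) was nearly silent at P20, at 96.1, 159.2 and 90.6 normalized counts in WT and 56.8, 77.5 and 62.1 in Smo*. By P28 the counts were 631.5, 798.1 and 1254 in WT and 1271, 1740 and 85.6 in Smo*. Thus 5 of the 6 P28 libraries were high, and Smo* replicate 3, the library with fewer genes detected and the lowest dermal papilla marker sum, stayed at the P20 level. The rise in WT was 7.64-fold (log2 fold change 2.93 with SE 0.83, limma adjusted p = 0.0215). Without P20 WT replicate 1 or 3, or P28 WT replicate 2 or 3, the adjusted p was 0.0588, 0.0677, 0.051 and 0.0807. In Smo* the log2 difference of 3.13 (SE 0.83) missed the threshold with all libraries (limma adjusted p = 0.0571) and passed without P28 Smo* replicate 3 (adjusted p = 2.02e-05).

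Syndecans are membrane proteoglycans that act as co-receptors for growth factors and adhesion. Sdc1 (syndecan 1) lay at 8623, 9501 and 9894 normalized counts in P28 WT and at 2897, 3780 and 1917 in P28 Smo*. All Smo* values were under the WT values, and Sdc1 was 3.38-fold lower (log2 fold change -1.76 with SE 0.23, limma adjusted p = 0.00334), a call that held in all 18 alternatives. At P20 it lay at 5513, 3378 and 4068 in WT and 1949, 3905 and 2981 in Smo*, with overlap (-0.58, SE 0.26, adjusted p = 0.467). In WT Sdc1 rose 2.2-fold from P20 to P28 (log2 fold change 1.14 with SE 0.27, limma adjusted p = 0.00959), whereas its Smo* difference was -0.04. The P28 WT libraries enter both comparisons, so these are not separate evidence.

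Sdc4 (syndecan 4), found in focal adhesions, lay at 21465, 15150 and 13706 normalized counts in P20 WT and at 8570, 5363 and 8831 in P20 Smo*. No value overlapped, and the log2 difference of -1.15 (SE 0.23) was the most negative of the 37 at P20, with a limma adjusted p of 0.0822. It passed in limma on 12 libraries (adjusted p = 0.025), in DESeq2 (0.000109) and in the authors' deposited table (9.36e-05), so this gene lies near the threshold. P28 WT lay at 7630, 7447 and 6799, a fall of 1.18 on the log2 scale from P20 WT (SE 0.21, limma adjusted p = 0.00205). The P28 Smo* libraries held 6659, 4859 and 4660, all below WT (-0.45, SE 0.16, adjusted p = 0.115, and 0.0369 without P28 Smo* replicate 1).

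Sdc3 (syndecan 3) rose with age in both genotypes and passed no test between them. In WT it went from 1482, 2070 and 1754 normalized counts to 3472, 3494 and 3505 (log2 fold change 0.99 with SE 0.22, limma adjusted p = 0.00643). In Smo* it went from 1601, 1767 and 1542 to 4210, 4598 and 2223 (1.10, SE 0.22, adjusted p = 0.0254). The 3 P28 WT libraries were nearly identical, while P28 Smo* replicate 3 was lower than the other two. The Smo* call ended in 6 of 17 alternatives, without P20 Smo* replicate 1 (adjusted p = 0.0699) or 3 (0.087) and without P28 Smo* replicate 1 (0.0873) or 2 (0.0645) among them. Between genotypes the log2 differences were -0.10 (SE 0.14) and 0.01 (SE 0.25). Sdc2 (syndecan 2) passed no test, with Smo* values below WT at both ages (-0.32, SE 0.12, and -0.28, SE 0.15).

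Of the large proteoglycans, Hspg2 (perlecan) binds laminin networks in basement membranes, and Acan (aggrecan) binds hyaluronan and is best known from cartilage. Acan lay at 608.5, 753 and 861 normalized counts in P28 WT and at 1293, 1912 and 1140 in P28 Smo*. The groups did not overlap, and Acan rose 1.92-fold (log2 fold change 0.94 with SE 0.22, limma adjusted p = 0.0335). That call held in 10 of 18 alternatives. It ended without Smo* replicate 1 (adjusted p = 0.0658) or 2 (0.0591) and without WT replicate 1 (0.101), 2 (0.109) or 3 (0.0697). It also ended in limma on 12 libraries (0.214), with no variance trend (0.0954) and in the authors' deposited table (0.0992).

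At P20 Acan was scarce in WT, at 229.5, 134.2 and 116.6 normalized counts, and uneven in Smo*, at 825.2, 1031 and 201.7. Smo* replicates 1 and 2 were thus above every WT value and replicate 3 was within the WT range. The log2 difference of 1.85 (SE 0.57) had a limma adjusted p of 0.251, which became 0.0149 without Smo* replicate 3, and 0.000302 in the authors' deposited table. In WT, Acan rose 4.76-fold from P20 to P28 (log2 fold change 2.25 with SE 0.49, limma adjusted p = 0.00552). Hspg2 lay at 83118, 74891 and 78951 in P20 WT, 72507, 67789 and 59802 in P20 Smo*, 64111, 59702 and 46925 in P28 WT and 64804, 75433 and 101366 in P28 Smo*. Its Smo* values were all lower at P20 and all higher at P28, but neither difference passed (-0.25, SE 0.14, and 0.49, SE 0.24, limma adjusted p = 0.572 and 0.237). In the authors' deposited table Hspg2 had an adjusted p of 0.0376 at P28.

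Tenascins are modular glycoproteins that modulate adhesion. Tnn (tenascin N, also called tenascin W) showed the largest change with age of the 37 genes. It lay at 6156, 4334 and 7368 normalized counts in P20 WT and 276.5, 462 and 237.6 in P28 WT. In Smo* it lay at 2575, 3471 and 4405 at P20 and 246.8, 297.8 and 286.6 at P28. All P28 values were far below all P20 values. Tnn was 18.6-fold lower at P28 in WT (log2 fold change -4.22 with SE 0.26, limma adjusted p = 1.2e-06) and 12.3-fold lower in Smo* (-3.62, SE 0.26, adjusted p = 2.92e-05), and both calls held in all 17 alternatives. The difference between the genotypes in this fall was 0.60 (SE 0.37, limma adjusted p = 0.377). Within P20 the Smo* values overlapped with WT (-0.77, SE 0.24, limma adjusted p = 0.253, DESeq2 adjusted p = 0.0445).

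Tnxb (tenascin X), which organizes collagen in skin, lay at 104242, 92868 and 108250 normalized counts in P20 WT and at 94907, 102014 and 105404 in P20 Smo*, a log2 difference of -0.01 (SE 0.15). Normalized counts at P28 were 67403, 61376 and 37747 in WT and 118867, 89964 and 135477 in Smo*. The P28 groups did not overlap, and the log2 difference of 1.07 (SE 0.29) just missed the threshold, at a limma adjusted p of 0.0567. It passed in 7 of the alternatives, among them edgeR (adjusted p = 0.0495), DESeq2 (0.000395), limma on 12 libraries (0.00895) and the authors' deposited table (2.22e-05). In WT Tnxb fell by 0.92 on the log2 scale from P20 to P28 (SE 0.23, limma adjusted p = 0.0116). Tnc (tenascin C) lay at 3084 ± 2872 in P20 WT and 826.4 ± 127.6 in P28 WT (SD, n = 3), a difference that did not pass in limma (-1.50, SE 0.56, adjusted p = 0.0686). It passed in edgeR (adjusted p = 0.035), in DESeq2 (0.0211) and in limma without P20 WT replicate 2 (0.0293).

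Thrombospondins bind calcium, matrix proteins and cell receptors, and Thbs1 also activates latent TGF-beta. Thbs1 lay at 9412, 5545 and 7001 normalized counts in P28 WT and at 33502, 15200 and 14312 in P28 Smo*. The groups did not overlap, with Smo* replicate 1 far above the other 2, and Thbs1 rose 2.71-fold (log2 fold change 1.44 with SE 0.34, limma adjusted p = 0.0361). The call held in 11 of 18 alternatives. It ended without WT replicate 1 (adjusted p = 0.053), 2 (0.142) or 3 (0.121), in limma on 12 libraries (0.0515) and in the authors' deposited table (0.0625). At P20 Thbs1 lay at 48987, 20859 and 19031 in WT and 34446, 16897 and 11975 in Smo*, with overlap. From P20 to P28 it fell 3.76-fold in WT (-1.91, SE 0.45, limma adjusted p = 0.00853), with a log2 difference of 0.02 in Smo*.

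Thbs3 was the most even of the 4 at P20, at 4107, 4237 and 3817 normalized counts in WT and 3505, 4243 and 4416 in Smo*. The P28 values were 3689, 2527 and 2530 in WT and 6135, 5006 and 6525 in Smo*. Every P28 Smo* value was above every other library. Thbs3 rose 2.04-fold in Smo* at P28 (log2 fold change 1.03 with SE 0.18, limma adjusted p = 0.0128). That call held in 15 of 18 alternatives and ended without WT replicate 2 (adjusted p = 0.0637) or 3 (0.0609) and with no variance trend (0.0552). In WT it fell by 0.50 from P20 to P28 on the log2 scale (SE 0.16, limma adjusted p = 0.0364), a call that held in 10 of 17 alternatives and ended without P20 WT replicate 1 (adjusted p = 0.0852), 2 (0.105) or 3 (0.0637) and without P28 WT replicate 2 (0.129) or 3 (0.143).

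Thbs2, which limits vessel growth, fell in WT from 30298, 24636 and 27423 normalized counts at P20 to 20785, 12406 and 7695 at P28 (log2 fold change -1.12 with SE 0.30, limma adjusted p = 0.0153). The call ended without P28 WT replicate 3 (adjusted p = 0.0601), the lowest library. P28 Smo* held 24531, 17547 and 22282, which overlapped with WT (0.76, SE 0.33, adjusted p = 0.189). Thbs4 passed no limma test with all libraries, with values of 1932 ± 442.9 and 1136 ± 280.1 in P20 WT and Smo* (SD, n = 3), where the groups did not overlap (-0.77, SE 0.23, limma adjusted p = 0.244, DESeq2 adjusted p = 0.0434). Between ages in Smo* it passed in DESeq2 (adjusted p = 0.0201) and in limma without P28 Smo* replicate 3 (0.0392).

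Postn (periostin) promotes collagen cross-linking and integrin binding. At P20 it lay at 62506, 57558 and 60213 normalized counts in WT and 61510, 62800 and 69325 in Smo*, which overlap. Its P28 counts were 54634, 33535 and 47024 in WT and 104376, 92468 and 92985 in Smo*. The P28 Smo* libraries were the 3 highest of the 12, and Postn rose 2.18-fold (log2 fold change 1.13 with SE 0.23, limma adjusted p = 0.022). The call ended without Smo* replicate 1 (adjusted p = 0.0602), WT replicate 2 (0.0943) or WT replicate 3 (0.0722). Between ages neither genotype passed in limma on all libraries, at -0.44 (SE 0.18) in WT and 0.58 (SE 0.18) in Smo*. Both passed in DESeq2 (adjusted p = 0.0396 and 0.00791), and WT also did with quantile normalization (0.0316) and without P28 WT replicate 1 (0.0324).

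Sparc itself passed no limma test. It lay at 712322, 864755 and 847671 normalized counts in P20 WT and at 641210, 477104 and 602875 in P20 Smo*, all lower (-0.50, SE 0.27, limma adjusted p = 0.537). The P28 libraries held 901446, 927860 and 688282 in WT and 1258190, 801706 and 948542 in Smo*, which overlap (0.24, SE 0.59). Sparc had a smaller SE of 0.19 at both ages in the authors' deposited table, without passing there (adjusted p = 0.245 and 0.41). Its log2 difference of 0.79 (SE 0.36) between ages in Smo* had a limma adjusted p of 0.215 and passed in DESeq2 (adjusted p = 0.0013). Its relatives Sparcl1 (hevin) and Smoc2 rose from P20 to P28 in Smo*. Sparcl1 went from 3927, 2175 and 4469 to 9319, 8420 and 5820 (log2 fold change 1.19 with SE 0.29, limma adjusted p = 0.0446). Smoc2 went from 5088, 3893 and 5033 to 9076, 6399 and 9921 (0.84, SE 0.21, adjusted p = 0.0493). Neither pair of groups overlapped, but the Sparcl1 call held in 9 of 17 alternatives and the Smoc2 call in 6 of 17. The Sparcl1 call ended without P20 Smo* replicate 1 (adjusted p = 0.0795), 2 (0.095) or 3 (0.0728) and without P28 Smo* replicate 1 (0.127) or 2 (0.0949). The Smoc2 call ended without P20 Smo* replicate 1 (0.0898), 2 (0.112) or 3 (0.111) and without P28 Smo* replicate 1 (0.13) or 3 (0.08). In WT the log2 differences were 0.73 for Sparcl1 and 0.03 for Smoc2, and neither passed in limma on all 12 libraries. Sparcl1 passed there in a fit of the 6 WT libraries (adjusted p = 0.04) and without P20 WT replicate 3 (0.0291).

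Spon1 (F-spondin) is a matrix-bound protein known from axon guidance. Spon1 was the 1 gene of the set that passed between genotypes at both ages. At P20 it lay at 16035, 11540 and 12960 normalized counts in WT and at 6704, 7938 and 6753 in Smo*. The P28 libraries gave 44388, 48711 and 49897 in WT and 10126, 15781 and 4465 in Smo*. WT and Smo* did not overlap at either age, and P28 Smo* replicate 3 was the lowest of the 12 libraries. Spon1 was 1.88-fold lower in Smo* at P20 (log2 fold change -0.91 with SE 0.14, limma adjusted p = 0.0367) and 5.33-fold lower at P28 (-2.41, SE 0.40, adjusted p = 0.0102).

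The P20 call of Spon1 held in 8 of 18 alternatives and ended with any 1 library left out, at adjusted p values of 0.0686 to 0.0958. It also ended with quantile normalization (0.086), with no variance trend (0.14) and in limma on 12 libraries (0.361), and in the authors' deposited table its adjusted p was 0.123. The P28 call ended in 1 of 18, without WT replicate 2 (adjusted p = 0.053). From P20 to P28 Spon1 rose 3.56-fold in WT (log2 fold change 1.83 with SE 0.33, limma adjusted p = 0.00193). Its difference of 0.33 in Smo* (SE 0.33) did not pass with all libraries and passed without P28 Smo* replicate 3 (adjusted p = 0.0254). Spon2 (mindin) passed no test, at -0.20 (SE 0.20) and 0.36 (SE 0.43) between genotypes.

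Fn1 (fibronectin), the main adhesive glycoprotein, lay at 170332, 160218 and 194173 normalized counts in P20 WT and at 149940, 124191 and 145759 in P20 Smo*. At P28 it lay at 166494, 117460 and 91187 in WT and at 195357, 171514 and 209300 in Smo*. Smo* values were all lower at P20 and all higher at P28, but neither difference passed (-0.32, SE 0.17, and 0.66, SE 0.30, limma adjusted p = 0.543 and 0.212). At P28 Fn1 passed in DESeq2 (adjusted p = 0.0438) and in the authors' deposited table (0.0177). Matn2 (matrilin 2), an adaptor between matrix networks, passed no test and lay between 5474 and 6906 in the group means.

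The elastic fibre proteins (7 genes) moved in different directions. Emilin1, which sits where elastin meets the microfibrils, lay at 5078, 4221 and 4625 normalized counts in P20 WT and 5331, 6059 and 4727 in P20 Smo*. Normalized counts at P28 were 9961, 9678 and 10323 in WT and 5302, 6735 and 5361 in Smo*. The 3 P28 WT libraries thus stood above the other 9. Emilin1 was 1.73-fold lower in Smo* at P28 (log2 fold change -0.79 with SE 0.13, limma adjusted p = 0.00998), a call that ended without WT replicate 3 (adjusted p = 0.0534). It rose 2.16-fold in WT from P20 to P28 (1.11, SE 0.13, limma adjusted p = 9.28e-05), with 0.11 in Smo*.

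Fbn2 (fibrillin 2), a microfibril protein of growing tissue, rose in WT from 5991, 4838 and 6366 normalized counts to 10874, 11618 and 11348 (log2 fold change 0.99 with SE 0.15, limma adjusted p = 0.000773). P28 Smo* held 6808, 10126 and 8630, all below WT (-0.42, SE 0.16, adjusted p = 0.137). Fbn1, the main fibrillin, passed no test and differed by -0.00 on the log2 scale (SE 0.23) between ages in WT. Eln fell in WT from 97440, 140393 and 163752 to 76845, 66589 and 32050 (-1.26, SE 0.36, limma adjusted p = 0.0232). That call ended without P20 WT replicate 2 (adjusted p = 0.0698) or 3 (0.0873) and without P28 WT replicate 3 (0.0991), the lowest library. Between genotypes Eln did not pass, at -0.54 (SE 0.27) and 0.37 (SE 0.38).

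Fibulins bind elastin, fibrillin and basement membranes. Fbln2 lay at 29531, 33803 and 36073 normalized counts in P20 WT and 32595, 31190 and 28536 in P20 Smo*, which overlap. The P28 values were 28487, 23405 and 19113 in WT and 45923, 48414 and 36909 in Smo*. The P28 Smo* libraries were the 3 highest of the 12, and Fbln2 rose 1.86-fold (log2 fold change 0.90 with SE 0.20, limma adjusted p = 0.0301). The call held in 13 of 18 alternatives and ended without Smo* replicate 1 (adjusted p = 0.0767) or 2 (0.0724), without WT replicate 2 (0.111) or 3 (0.117) and with no variance trend (0.0685). In WT it fell by 0.50 from P20 to P28 (SE 0.16, limma adjusted p = 0.0424), which held in 10 of 17 alternatives and ended without P20 WT replicate 2 (adjusted p = 0.109) or 3 (0.139) and without P28 WT replicate 2 (0.0933) or 3 (0.174).

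Fbln1 fell in WT from 14556, 16171 and 14509 normalized counts to 9285, 8049 and 6115 (log2 fold change -0.97 with SE 0.15, limma adjusted p = 0.000786). In Smo* it lay at 11429, 9566 and 11230 at P20, all below WT (-0.49, SE 0.11, limma adjusted p = 0.128, DESeq2 adjusted p = 0.0139), and at 11059, 8761 and 9679 at P28, overlapping with WT (0.35, SE 0.18). Fbln5, which is needed to assemble elastic fibres, passed no test and lay between 5098 and 6873 in the group means. Of 5 genes for elastic fibre assembly enzymes, Loxl3, a lysyl oxidase that cross-links elastin and collagen, fell in Smo* at P28 from 2279 ± 86.2 to 1345 ± 253 (SD, n = 3) normalized counts (log2 fold change -0.78 with SE 0.15, limma adjusted p = 0.017). The P20 means of Loxl3 were 869 ± 90.9 in WT and 996.1 ± 111 in Smo*.

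Whether the Smo* difference itself changed between P20 and P28 was tested as an interaction term in 1 limma fit of the 12 libraries. It passed for 5 of the 37 genes, against 4.72% of all 14790 genes tested. Emilin1 had the negative term (-1.0, SE 0.18, limma adjusted p = 0.00942), and its call held in all 22 alternatives. Thbs3 (1.03, SE 0.22, adjusted p = 0.0239), Fbln2 (1.0, SE 0.23, 0.0331), Postn (1.02, SE 0.25, 0.0391) and Fbln1 (0.84, SE 0.21, 0.0459) had positive ones. These held in 17, 13, 11 and 8 of the 22, and in 8, 5, 3 and 2 of the 12 fits with 1 library left out. In those fits the terms stayed between 0.93 and 1.22 for Thbs3, 0.85 and 1.14 for Fbln2, 0.83 and 1.18 for Postn, and 0.67 and 0.97 for Fbln1. The terms of Spon1 (-1.50, SE 0.47, adjusted p = 0.0868), Sdc1 (-1.18, SE 0.39, 0.102), Tnxb (1.08, SE 0.32, 0.0749) and Thbs1 (1.93, SE 0.63, 0.101) did not pass in limma on all libraries. DESeq2 called 3 of these 4: Spon1 (adjusted p = 0.0377), Sdc1 (0.0394) and Tnxb (0.00757). In limma with 1 library left out, Spon1 passed without P28 Smo* replicate 2 (0.0128) or 3 (0.0474), Sdc1 without P20 Smo* replicate 1 (0.0435) or P28 Smo* replicate 2 (0.0494), Tnxb without P28 Smo* replicate 2 (0.0439) or P28 WT replicate 1 (0.049), and Thbs1 without P20 Smo* replicate 1 (0.0472).

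The count of interaction calls moved with single libraries: it was 1 without P28 WT replicate 2, P28 WT replicate 3, P28 Smo* replicate 1 or P20 WT replicate 2, and 9 without P28 WT replicate 1 or P28 Smo* replicate 2. It was 2 without P20 Smo* replicate 2 or 3 or P20 WT replicate 3, and 3 without P20 WT replicate 1. Over the set, the Smo* fold change was below 0 at P20 and above 0 at P28 in 19 genes, below 0 at both ages in 12, above 0 at both in 4, and above 0 at P20 and below at P28 in 2. Of all genes, 50.5% were above 0 at P20 and 49.1% at P28, and their share in each pattern was not computed. The pattern counts also depend on the scaling, since quantile normalization put 12 of the 37 above 0 at P20, against 6 in the main fit. The median term was 0.60, against -0.0175 over all genes, and lay between 0.46 and 0.73 over the alternatives.

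**Figure D4:**
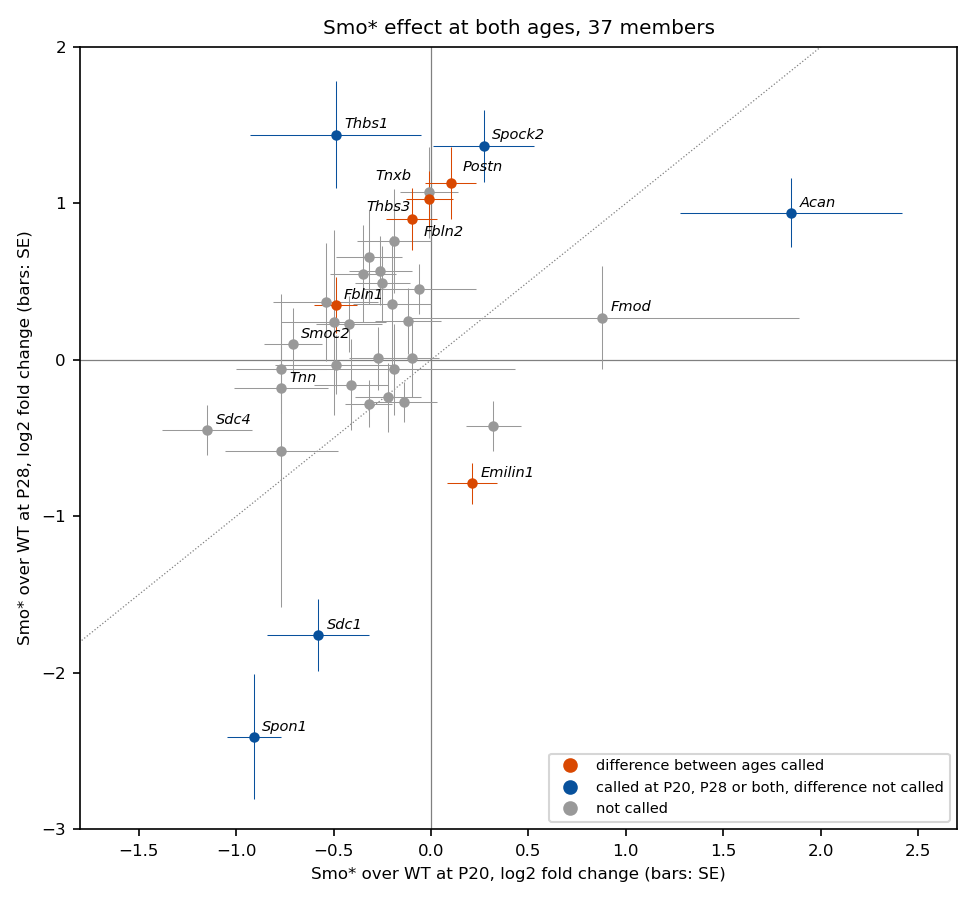
Log2 fold change of Smo* over WT at P20 (x axis) and at P28 (y axis) for the 37 genes, with bars for SE and a dotted line of equal change. Orange points passed the test of the difference between ages: Thbs3, Postn, Fbln2 and Fbln1 lie above the line and Emilin1 below it.

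From P20 to P28 in WT, from telogen to late anagen, 18 of the 37 genes passed, 7 higher and 11 lower. Among all 14790 genes 25.4% passed, 13.5% higher and 11.9% lower. The 7 that rose were Spock3, Acan, Spon1, Sdc1, Emilin1, Sdc3 and Fbn2. The 11 that fell were Tnn, Thbs1, Eln, Sdc4, Thbs2, Fbln1, Tnxb, Aspn, Lum, Thbs3 and Fbln2, which include 2 of 3 tenascins, 3 of 4 thrombospondins and 2 of 7 small leucine-rich proteoglycans. The median log2 fold change of the set was -0.25, against -0.0061 over all genes. It was -0.03 without P28 WT replicate 2 and -0.14 with quantile normalization. In Smo*, from telogen to early anagen, 4 passed, Tnn lower and Sdc3, Sparcl1 and Smoc2 higher, against 3.46% of all genes, and the median was 0.25, or 0.14 with quantile normalization. With no filter on low values 2 genes passed, and in a fit of only the 6 Smo* libraries 1 did. In that comparison 1 gene passed without P20 Smo* replicate 1 or 3 or P28 Smo* replicate 1, 2 without P20 Smo* replicate 2 or P28 Smo* replicate 2, and 6 without P28 Smo* replicate 3. The P28 WT libraries enter both the stage comparison and the comparison of genotypes at P28, so the opposite signs of genes such as Thbs1, Emilin1 and Sdc1 in the 2 comparisons are partly the same measurements.

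**Figure D5:**
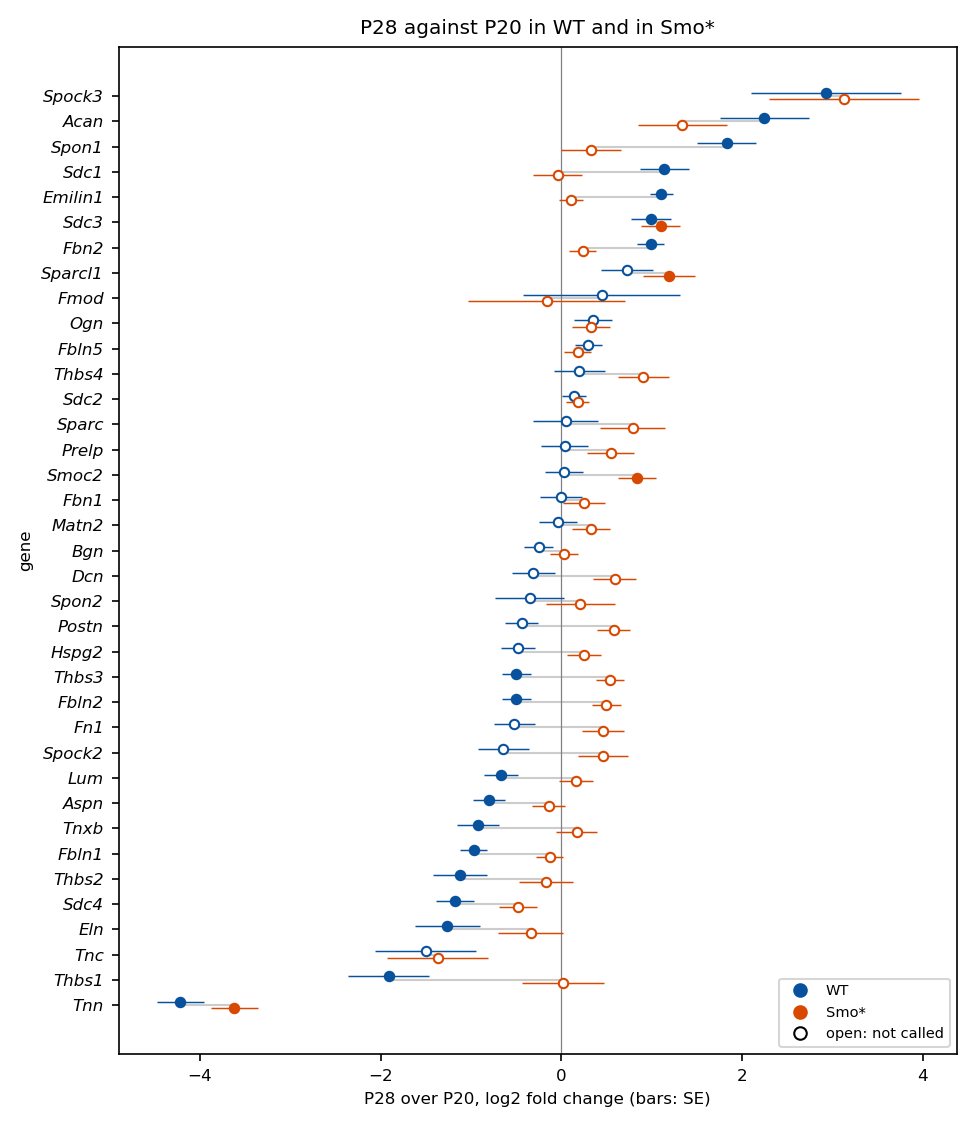
Log2 fold change of P28 over P20 for each of the 37 genes in WT (blue) and in Smo* (orange), ordered by the WT value, with bars for SE and filled points for those that passed the test. Tnn lies near -4 in both genotypes, and most other filled points belong to WT.

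Markers of other cell types were summed in the same way. Those of interfollicular dermal fibroblasts (11 genes) lay at 168142 to 179309 normalized counts in P20 WT and 130979 to 151950 in P20 Smo*, without overlap, beside the lean of the set to lower values at P20. At P28 they overlapped, at 151222 to 233555 in WT and 164102 to 194612 in Smo*. Gene by gene, the median log2 fold change of these 11 in Smo* was -0.41 at P20 and 0.19 at P28. The 37 genes had -0.26 and 0.24. The median interaction term was 0.66 for the 11, against 0.60 for the 37. At P28 0 of the 11 passed as higher and 2 (Gpx3 and Pdgfra) as lower, against 4.05% and 4.85% of all genes. Endothelial markers (10 genes) lay at 1880 to 3479 in P28 WT and 3488 to 5817 in P28 Smo*, without overlap, beside the genes that rose there. Much of that gap was Cdh5, at 151.1, 42.76 and 88.4 in P28 WT and 2271, 1126 and 2054 in P28 Smo*. Erg went the other way, at 122, 137.8 and 154.7 in P28 WT and 98.08, 78.72 and 77.01 in P28 Smo*. Adipocyte markers (7 genes) lay at 735.7 to 806.5 in P28 WT and at 1233, 679 and 11216 in P28 Smo*, high in replicate 3. At P20 they lay at 492.9 to 1682 in WT and at 2359, 687.3 and 4140 in Smo*, uneven there as well. Dermal sheath and smooth muscle markers (11 genes) lay at 24722 to 30014 in P28 WT and 24194 to 35806 in P28 Smo*. Keratinocyte markers (11 genes) lay at 1048 to 1271 in P28 WT and 542.3 to 689.8 in P28 Smo*, without overlap, beside the genes that fell there. Singly, 0 of the 11 passed the limma test there. Perp leaned the other way, at 73.4, 67.7 and 89.32 in P28 WT and 214.9, 84.41 and 210.7 in P28 Smo*. At P20 the keratinocyte sums overlapped, at 609.3 to 1760 in WT and 438.2 to 762.2 in Smo*. Schwann markers (6 genes) lay at 385.5 to 550.5 in the P20 libraries and 851.4 to 1381 in the P28 libraries, without overlap, beside the changes between ages. Across the 12 libraries the sums lay at 12140 to 22683 for pericyte markers (7 genes), 524.4 to 1997 for immune (10), 911.6 to 2044 for melanocyte (5) and 563 to 1862 for skeletal muscle markers (6). Of the 19 dermal papilla markers 1 rose and 6 fell in Smo* at P28, against 4.05% and 4.85% of all genes. From P20 to P28 in WT 11 of them rose and 1 fell, against 13.5% and 11.9% of all genes. No marker gene of any list was at 0 in all 12 libraries. The part of these cell types in the results was not tested.

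Among 61 other matrix proteoglycan and glycoprotein genes, 56 could be tested between genotypes. At P20 2 rose and 2 fell, against 0.696% of all genes called: Hapln3, which links hyaluronan to proteoglycans, and Smoc1 rose, and Spock1 and Dpt, a collagen-binding protein, fell. At P28 7 rose and 5 fell, against 4.05% and 4.85% of all genes. Ltbp4, which anchors latent TGF-beta and aids elastic fibre assembly, went from 3949 ± 843.2 to 12942 ± 3177 normalized counts (log2 fold change 1.71 with SE 0.22, limma adjusted p = 0.00304). Frem2 (2.74), Emilin3 (1.65) and Spock1 (1.63) rose as well, whereas Matn4 (-3.71), Hapln1 (-1.45), Smoc1 (-1.31) and Ltbp3 (-0.57) fell. The Ltbp4, Frem2 and Smoc1 calls held in all 18 alternatives, and those of Emilin3, Ltbp3 and Hapln1 in 12, 11 and 7. Matn4, a matrilin, stood at 5211, 5050 and 5852 in P28 WT and at 708.6, 770.1 and 124.1 in P28 Smo*. From P20 to P28 in WT 12 of 55 rose and 11 fell, against 13.5% and 11.9% of all genes, with the proteoglycan Vcan (versican), which marks the growing papilla, going from 20664 ± 621 to 126389 ± 19760 (2.60, SE 0.48, adjusted p = 0.0023). In Smo* 5 rose and 3 fell, where 3.46% of all genes passed. The interaction term passed for 3 positive and 2 negative genes, where 4.72% of all genes passed.

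Of 46 glycosaminoglycan synthesis genes, which build the sugar chains, 2 rose in Smo* at P28 and 6 fell, where 4.05% of all genes were higher and 4.85% lower. The heparan sulphate sulphotransferases Hs3st3b1 (log2 fold change -2.51) and Hs3st3a1 (-2.23), the chondroitin sulphotransferase Chst7 (-2.95) and Ndst3 (-1.41) fell, and Hs6st2 (1.36) and Xylt1 (0.74), which starts the chains, rose. Chst7 lay at 1227, 1489 and 1489 normalized counts in P28 WT and at 221.5, 245.6 and 105.9 in P28 Smo*. At P20 1 of 45 rose, Hs6st2 (1.88), against 0.696% of all genes called in either direction. In WT 20 of 46 rose and 6 fell from P20 to P28, against 13.5% and 11.9% of all genes. Of 14 matrix receptor genes, 2 rose and 3 fell in Smo* at P28, against the same 4.05% and 4.85%. The integrin subunit gene Itgb8 (2.67) and Cd36 (1.48), a thrombospondin receptor, rose, and Itga9 (-2.51), Itga8 (-1.56) and Robo1 (-1.41) fell. The Cd36 call held in 11 of 18 alternatives and that of Xylt1 in 13. Itga9, part of a receptor for tenascins, lay at 23316, 25620 and 23538 in P28 WT and at 4941, 7150 and 2132 in P28 Smo*.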

How the data were processed

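RNA of sorted dermal papilla cells was sequenced in 12 libraries, 3 per group. Normalized read counts (signal) for 25887 genes are deposited in 2 tables, 1 for each age. The values show that the authors divided whole-read counts by 1 size factor for each library: 100% were whole multiples of a step (tolerance 0.01 reads), which gives back the reads themselves. A deposited mean column matched the average of the 12 libraries, which were thus scaled together. Per the file headers, the authors' tables also give a log2 fold change, its standard error, a test statistic (a score), a p-value and an adjusted p-value. Trimmomatic, TopHat2 (version 2), HTSeq, DESeq2, mm10 and GRCm38.p4 appear, without roles, per the submitters' processing notes. No source used here says whether reads were counted by strand, so overlapping or antisense genes may share reads. Symbols came from a GENCODE annotation of GRCm38, which named 98.7% of the identifiers, and promoter windows from RefSeq.

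The test was limma 3.58.1 (R 4.3.3) with a variance trend on log2(value + 1), which understates changes of low genes. Genes had a mean of at least 10, p-values were adjusted by Benjamini-Hochberg over all of them, and the threshold was 0.05. Genotypes were compared within an age over 6 libraries. The comparisons between ages and the interaction term came from 1 fit of all 12. SE is limma's moderated standard error. With 3 libraries against 3 no exact permutation test of a single value can go below p = 0.1. Alternatives were TMM and quantile scaling, no filter or a mean of at least 50, a pseudocount of 0.5 or 5, limma without its variance trend or with robust empirical Bayes, edgeR 4.0.16 and DESeq2 1.42.0 on recovered reads, the other set of libraries in the fit, the authors' adjusted p-values and leaving out each library. The 37 members and the other gene lists were chosen with earlier results of these data known. All members are named, those that passed a test in full, along with up to 4 genes per list and direction among those with a mean of at least 50.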

Additional observations from a re-analysis of the deposited data

Results flagged for a closer look

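For 5 genes the Smo* difference changed between P20 and P28 by the interaction term of 1 limma fit over the 12 libraries. The term (P28 difference minus P20 difference, log2) was 1.03 for Thbs3, 1.02 for Postn, 1.0 for Fbln2, 0.84 for Fbln1 and -1.0 for Emilin1. Genotype and growth stage differ together at P28, and so cannot be told apart in these terms. Age and sex also differ together between P20 and P28, and cannot be told apart in them either.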

How the results depend on the processing

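The fold change of each gene that passed a test kept its direction in every alternative run. It still passed in 532 of these alternative values and no longer in 132. At P20 the count of genes that passed moved from 1 to 0 with quantile normalization or no variance trend, to 6 in DESeq2 and to 2 in the authors' deposited table, with 0 to 1 when single libraries were left out. At P28 it moved from 9 to 4 with no variance trend and lay between 2 and 9 with single libraries left out. For P28 against P20 in WT it stayed within 1.5 times of 18, with 12 to 20 when single libraries were left out. In Smo* it moved from 4 to 2 with no filter, 1 with no variance trend, 11 in DESeq2 and 1 in a fit of the 6 Smo* libraries, with 1 to 6 when single libraries were left out. The interaction count moved from 5 to 2 with no filter, 1 with no variance trend and 14 in DESeq2, with 1 to 9 when single libraries were left out. The cause of these shifts was not tested. No paired analysis was made, because the labels do not say what the numbers in the sample titles mean or whether samples are paired.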
